A study of Mus musculus with 6 samples.

Results

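Hair cells of the inner ear signal to afferent neurons at ribbon synapses, where an electron-dense ribbon holds synaptic vesicles next to calcium channels at the active zone. Opening of L-type calcium channels of the CaV1.3 type triggers vesicle fusion through otoferlin, and the released glutamate has been loaded into the vesicles by the transporter VGLUT3. The genes described here are Otof, which encodes the calcium sensor otoferlin, Slc17a8, which encodes VGLUT3, Cacna1d and Cacnb2, which encode the pore-forming subunit and an auxiliary beta subunit of the channel, Ctbp2, which encodes the ribbon protein RIBEYE as well as a transcriptional corepressor, and Bsn and Pclo, which encode the large active zone proteins bassoon and piccolo. These 7 genes were chosen for their known place at this synapse, with earlier results of these data known. Of these, 6 had a probe set annotated to them alone, out of 18193 genes with such a probe set, and together they were read by 13 of 45037 probe sets. For Slc17a8 the annotation used here holds no such probe set, so no value is given.

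Transcripts were compared between cochlear sensory epithelia (3 arrays) and vestibular sensory epithelia (3 arrays) of wild type C3H mice at postnatal day 2. The vestibular samples combined the saccule and utricle with the lateral and anterior cristae. Each tissue was pooled from several inner ears and kept its underlying mesenchyme and attached neurons, so every array read hair cells together with supporting cells, neurons, glia and connective tissue. The sources do not tie arrays to pools, so p-values measure only how far these arrays spread, and part of that may be technical. Values are log2 expression values computed by the authors with the robust multiarray average (RMA), given to 1 decimal, and array medians were 5.6 to 5.7. A probe set is a group of short oligonucleotides that reads 1 transcript region, and levels of different probe sets are not compared. Differences are vestibule minus cochlea on the log2 scale, fitted with limma over the probe sets with a mean value of at least 4.68 over all arrays. To pass, a probe set needed an adjusted p (Benjamini-Hochberg) under 0.1 together with a minimum fold of 1.3.

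Otof, Cacnb2 and Ctbp2 were higher in the vestibule, whereas Cacna1d, Bsn and Pclo did not pass the test at any tested probe set. In all, 10 of the 13 probe sets were tested, of which 4 were higher in the vestibule, against 12% of all tested probe sets. Both probe sets of Cacnb2 are among these 4. Probe sets of the same gene are not independent, and the 2 shares were not compared by a test. With limma no probe set was called towards the cochlea (0 of 10), against 7.37% of all tested probe sets, and 10 probe sets are too few to tell these apart. Before adjustment none was below 0.05 in that direction either, a threshold for which no share over all probe sets is given. The median difference of the 10 probe sets was 0.30, compared with 0 over all tested probe sets. The 3 probe sets under the filter were 1 of Bsn and 2 of Pclo.

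**Figure D1:**
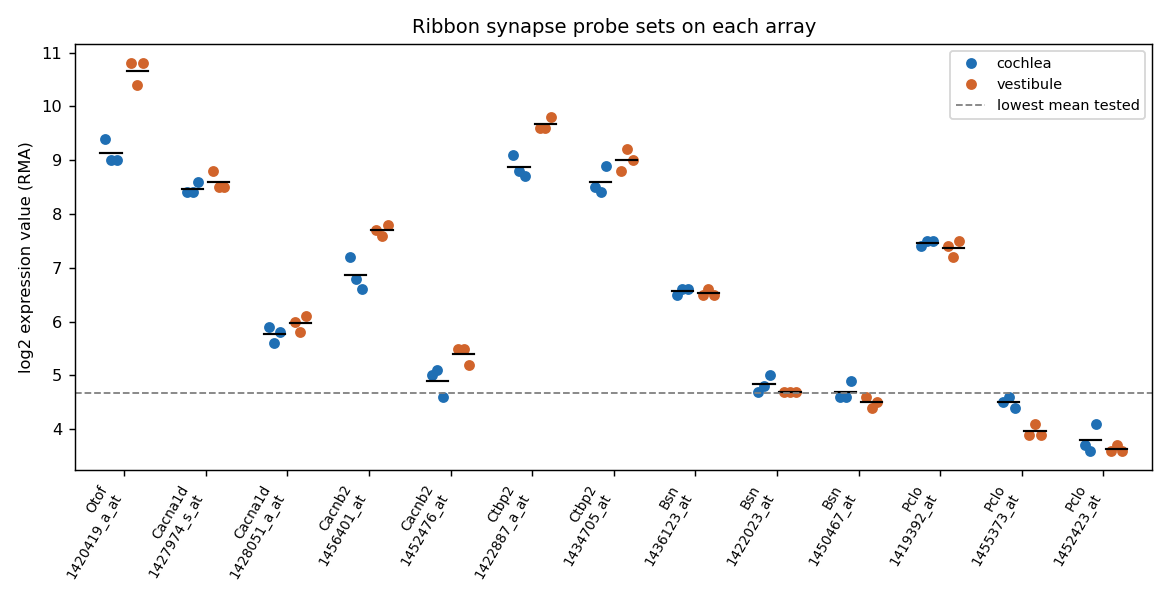
Log2 expression value of each of the 13 probe sets, with 1 point for each of the 3 cochlear and 3 vestibular arrays and black bars at the means; the dashed line is the lowest mean value that was tested, 4.68. The vestibular points of Otof lie at 10.4 to 10.8, above all cochlear points, while those of Cacna1d, Bsn 1436123_at and Pclo 1419392_at overlap with the cochlear points.

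The vesicle fusion gene Otof was read by a single probe set, 1420419_a_at. Its log2 values were 9.4, 9.0 and 9.0 in cochlea replicates 1, 2 and 3 and 10.8, 10.4 and 10.8 in vestibule replicates 1, 2 and 3. All vestibular arrays lay above all cochlear arrays, as was the case in one direction or the other for 27.4% of all tested probe sets. The cochlear arrays averaged 9.13 ± 0.23 (SD, n = 3) and the vestibular arrays 10.67 ± 0.23 (SD, n = 3), which differed by 1.53 (limma adjusted p = 0.000303, standard error 0.16), or 2.89-fold. With the sign kept, this difference was higher than that of 98.4% of the tested probe sets, and by size alone larger than that of 97.4%. It passed the test under each of 16 alternative settings, with values of 1.43 to 1.67.

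The genes whose pattern over the 6 arrays came nearest to that of Otof, after centring each on its own mean, were Lrrn1, which encodes a leucine-rich repeat neuronal protein, Cdon, a co-receptor for hedgehog signals, and Nrxn3, a presynaptic adhesion protein. Their root mean square differences from Otof were 0.10, 0.11 and 0.11 in log2 units. Frem1, an extracellular matrix gene, had the same distance as Nrxn3. The differences of Lrrn1, Cdon and Nrxn3 were 1.60, 1.43 and 1.47, close to that of Otof by the way they were chosen. Myof, which encodes myoferlin, was higher in the vestibule by 1.37 (limma adjusted p = 0.000772, standard error 0.17) at the 1 tested of its 2 probe sets. Fer1l6, a further ferlin gene, read 5.3, 5.8 and 5.8 in the cochlea and 3.9, 4.1 and 4.0 in the vestibule. The vestibular values lay below the lowest mean tested, so it was tested only through its cochlear values, and neither a size nor a p is given. Dysf, which encodes dysferlin, read 4.3 to 4.7 on all arrays and was under the filter.

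For the calcium channel, the pore-forming gene Cacna1d did not pass at either of its 2 probe sets, whereas the beta subunit gene Cacnb2 passed at both. The brighter probe set of Cacna1d, 1427974_s_at, read 8.4, 8.4 and 8.6 in the cochlea and 8.8, 8.5 and 8.5 in the vestibule. The tissues overlapped, with a difference of 0.13 (limma adjusted p = 0.557, 95% confidence interval -0.16 to 0.43). The other, 1428051_a_at, read 5.9, 5.6 and 5.8 in the cochlea and 6.0, 5.8 and 6.1 in the vestibule, a difference of 0.20 (limma adjusted p = 0.371, 95% confidence interval -0.10 to 0.50). Both intervals leave room for differences past the minimum fold of 1.3 towards the vestibule.

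Cacnb2 at its brighter probe set, 1456401_at, read 7.2, 6.8 and 6.6 in the cochlea and 7.7, 7.6 and 7.8 in the vestibule. The vestibular arrays lay close together and above all cochlear arrays, which spread more widely. The means were 6.87 ± 0.31 (SD, n = 3) and 7.70 ± 0.10 (SD, n = 3), a difference of 0.83 (limma adjusted p = 0.0079, standard error 0.16), or 1.78-fold. The dimmer probe set, 1452476_at, read 5.0, 5.1 and 4.6 in the cochlea and 5.5, 5.5 and 5.2 in the vestibule, which again did not overlap. Its difference of 0.50 (limma adjusted p = 0.0707, standard error 0.16) lost its call without any single array other than cochlea replicate 2, with adjusted p of 0.138 without cochlea replicate 1, 0.162 without cochlea replicate 3, and 0.256, 0.232 and 0.102 without vestibule replicates 1, 2 and 3. It also lost the call after centring each array on its median (0.47, adjusted p = 0.115). The mean of both probe sets gave 0.67 (limma adjusted p = 0.00555). Means of probe sets were fitted and adjusted separately here and below, so their adjusted p are not on the same footing as those of single probe sets.

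Sequence before the transcription starts was searched for the E-box CAGCTG, a palindromic motif of a class bound by basic helix-loop-helix factors such as the hair cell factor ATOH1, to show what the channel genes carry there. RefSeq start windows (GRCm38.p6) were found for 6 of the 7 genes, in 10 windows, and Otof had none. The motif occurred within the 250 bases before the start in both windows of Cacnb2 and in 1 of the 2 windows of Cacna1d, 3 of 10 windows in all, compared with 4271 of 32851 windows of all genes (13%). The windows of Ctbp2, which passed the test at 1 probe set, held none, nor did those of Bsn, Pclo and Slc17a8. The stretches around the motif are shown for both channel genes, of which Cacnb2 passed the test and Cacna1d did not, with the motif in capitals:
Cacnb2, first start, chr2:14604058-14604087, plus strand: ggcgacgggccgCAGCTGagtcggagccca
Cacnb2, second start, chr2:14823959-14823988, plus strand: tctcttctgagcCAGCTGacgtaattcaaa
Cacna1d, chr14:30353652-30353681, minus strand: gccgcaggcgggCAGCTGgggcgcggcgcg
The motif ended 230 and 115 bases before the start in the Cacnb2 windows and 177 bases before it in the Cacna1d window. A match is a description of the letters only. Each of these windows lies inside the annotated extent of its gene. That extent begins at chr2:14603861 for Cacnb2 and, on the minus strand, at chr14:30491156 for Cacna1d. First and second start therefore name only the order of the Cacnb2 windows, and the marked stretches do not precede the outermost annotated start. Which start the probe sets of Cacnb2 or Cacna1d read was not assigned.

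The ribbon gene Ctbp2 passed at 1 of its 2 probe sets. At 1422887_a_at it read 9.1, 8.8 and 8.7 in the cochlea and 9.6, 9.6 and 9.8 in the vestibule, with no overlap. The means were 8.87 ± 0.21 (SD, n = 3) and 9.67 ± 0.12 (SD, n = 3), a difference of 0.80 (limma adjusted p = 0.00423, standard error 0.14), or 1.74-fold. At 1434705_at the values were 8.5, 8.4 and 8.9 in the cochlea and 8.8, 9.2 and 9.0 in the vestibule. Here vestibule replicate 1 fell below cochlea replicate 3, and the difference of 0.40 did not pass (limma adjusted p = 0.152, 95% confidence interval 0.02 to 0.78). It passed without cochlea replicate 3 (0.55, adjusted p = 0.0643) and with array weights (0.45, adjusted p = 0.0624). Both probe sets pointed the same way, and their mean gave 0.60 (limma adjusted p = 0.00302). RIBEYE and the corepressor CtBP2 are made from different starts of this gene, and the probe sets were not assigned to either, so the values may read both. The close relative Ctbp1, which also encodes a corepressor, read 11.2 to 11.4 on every array, a difference of -0.03 (limma adjusted p = 0.887, 95% confidence interval -0.29 to 0.22).

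The active zone genes Bsn and Pclo did not pass at any tested probe set. Bsn, which anchors ribbons to the membrane, read 6.5, 6.6 and 6.6 in the cochlea and 6.5, 6.6 and 6.5 in the vestibule at its brightest probe set, 1436123_at. The difference of -0.03 had a 95% confidence interval of -0.27 to 0.21 (limma adjusted p = 0.887), which lies within the minimum fold of 1.3 in both directions. At 1422023_at the values were 4.7 to 5.0 in the cochlea and 4.7 on each vestibular array, a difference of -0.13 (limma adjusted p = 0.508), and at 1450467_at they were 4.4 to 4.9, under the filter.

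Pclo read 7.4, 7.5 and 7.5 in the cochlea and 7.4, 7.2 and 7.5 in the vestibule at its brightest probe set, 1419392_at. The tissues overlapped, with a difference of -0.10 (limma adjusted p = 0.633, 95% confidence interval -0.37 to 0.17). A dim probe set under the filter, 1455373_at, read 4.5, 4.6 and 4.4 in the cochlea and 3.9, 4.1 and 3.9 in the vestibule, with all vestibular arrays below all cochlear ones. In a fit of all 45037 probe sets it was higher in the cochlea (-0.53, limma adjusted p = 0.0159), the opposite side from Otof. The other, 1452423_at, read 3.6 to 4.1. Hair cells carry a short form of piccolo, and none of these probe sets was assigned to the short or the long form.

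**Figure D2:**
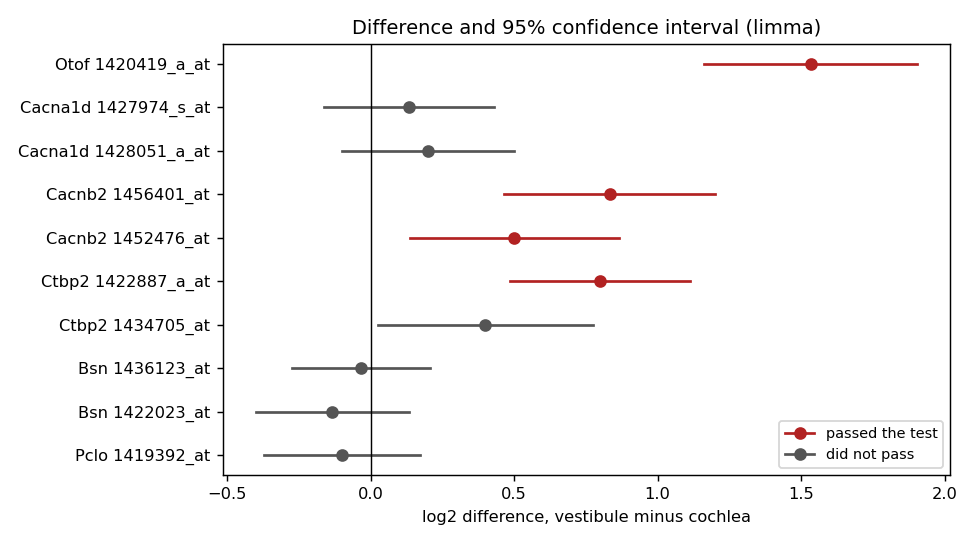
Log2 difference, vestibule minus cochlea, of the 10 tested probe sets, with the limma estimate as a point and its 95% confidence interval as a line; red marks probe sets that passed the test. Otof stands at 1.53 with an interval of 1.16 to 1.90, the Cacnb2 and Ctbp2 probe sets stand between 0.40 and 0.83, and the intervals of Cacna1d, Bsn and Pclo span 0.

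The cell types read by the arrays differed between the tissues. Of 24 hair cell markers 19 were measured and 18 tested. By limma 11 of these were called towards the vestibule and 0 towards the cochlea, against 15.1% and 7.97% of all tested genes, or 23.1% in either direction. Before adjustment, 13 and 0 had a limma p under 0.05. The transcription factor genes Gfi1 and Lhx3 differed by 3.10 and 1.83, and Ush1c, which encodes the hair bundle scaffold harmonin, by 1.57. Summed on the linear scale, the 19 markers reached 5235 to 6671 on cochlear arrays and 12000 to 13410 on vestibular ones. Such sums weigh the brightest probe sets most, which on vestibular arrays were those of Smpx, Gfi1 and Ush1c. The median difference of the tested markers was 1.00, between those of Ctbp2 and Otof. In such mixed tissue, fewer hair cells and less RNA per hair cell cannot be told apart. Markers of neurons moved the other way, with 12 of 15 called towards the cochlea and 2 towards the vestibule. Their summed level was 8638 to 9734 on cochlear arrays and 5372 to 5750 on vestibular ones. Isl1 was the brightest of them in the cochlea, with means of 11.7 there and 10.33 in the vestibule. The neuronal genes Stmn2 and Uchl1 stood at -3.90 and -2.97. Nefh, a neurofilament gene, read 7.3, 7.4 and 7.0 in the cochlea and 4.4, 4.6 and 4.3 in the vestibule, below the lowest mean tested, so no size is given. Nefh and Ina entered the test only through their cochlear values, and 10 called neuronal markers remain without them. Towards the vestibule were called 4 of 9 Schwann cell markers, 6 of 12 mesenchymal markers and 5 of 11 supporting cell markers, and towards the cochlea 1, 1 and 3 of these. Genes listed for cochlear hair cells were called once in each direction, of 2 tested, and those for vestibular hair cells 2 times in each direction, of 5 tested. The outer hair cell gene Slc26a5 read 3.9 to 4.0 on all arrays. Bsn, Pclo, Cacna1d and Cacnb2 are also expressed by neurons. Ctbp2 also encodes a transcriptional corepressor, and its probe sets were not assigned to either form. The part of any of these cell types in the results was not tested.

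Each gene was also set against the mean of the 18 tested hair cell markers on the same array, and only the change of this distance between tissues is read. The marker mean was 7.53 in the cochlea and 8.51 in the vestibule, so a gene equal in both tissues changes by -0.98. Otof changed by 0.56, with an SD of 0.31 among the 3 cochlear and 0.16 among the 3 vestibular arrays (two-sided exact permutation p = 0.1, adjusted over the 6 genes 0.15), the smallest p that 3 arrays against 3 can give. Its arrays were only just apart, with cochlea replicate 1 at 1.94 and vestibule replicate 2 at 1.97. After a second quantile normalization Otof changed by 0.51 (exact permutation p = 0.2). Ctbp2 and Cacnb2 changed by -0.18 and -0.14, and their arrays overlapped (exact permutation p = 0.5 and 1). Without cochlea replicate 1 they changed by -0.02 and 0.06, which for Cacnb2 is the other direction. With the mean of probe sets they changed by -0.36 and -0.30 (exact permutation p = 0.2 and 0.1). Cacna1d, Bsn and Pclo changed by -0.84, -1.01 and -1.08, near the value of a gene equal in both tissues, so these values restate the difference of the markers. The choice of reference moved these values. A second reference was the median of the markers without the cholinergic receptor gene Chrna9 (Chrna10 was not measured). Against it Otof changed by 0.13 (exact permutation p = 0.8) and its arrays overlapped. Cacnb2 and Ctbp2 changed by -0.57 and -0.60, and Cacna1d, Bsn and Pclo by -1.27, -1.43 and -1.50. The value of -0.98 for a gene equal in both tissues does not hold for this reference. Bsn, whose own difference was -0.03, stood at -1.43, so the values of Cacna1d, Bsn and Pclo again restate the difference of the markers.

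**Figure D3:**
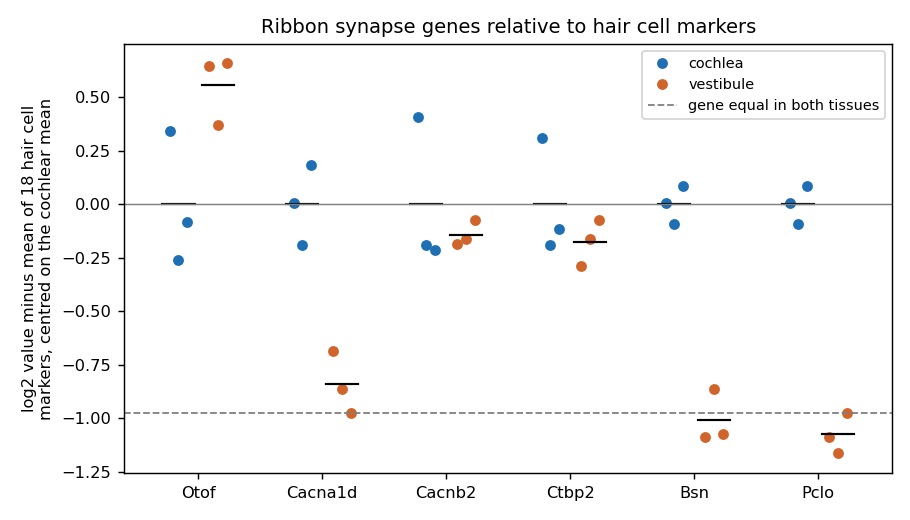
Log2 value of each ribbon synapse gene (brightest probe set) minus the mean of 18 hair cell markers on the same array, centred on the cochlear mean of each gene, with 1 point for each array and black bars at the means of the 3 cochlear and 3 vestibular arrays. The dashed line at -0.98 is where a gene equal in both tissues would stand in the vestibule; Otof stands at 0.56, Ctbp2 and Cacnb2 near 0, and Cacna1d, Bsn and Pclo near the dashed line.

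Among 94 other genes of the synapse and relatives of these genes, 87 were measured and 75 tested at their brightest probe set. Towards the vestibule 13 genes (17.3%) were called and towards the cochlea 16 (21.3%), against 15.1% and 7.97% of all tested genes, while 46 did not pass, and the median difference was -0.03, compared with 0.03 over all genes. Of the 29 called genes, 17 kept their call under every alternative setting that tested them. With the mean of all tested probe sets of a gene in place of the brightest, fitted and adjusted separately, 25 of the 29 were called again. Erc1, Nsf, Cacnb4 and Cacna1c were not, and Cacna2d4, Dnm1, Gria2 and Napb were called instead. Dnm1 had 1 tested probe set and the same difference of 0.53 in both. Its call came from the separate fit and adjustment (limma adjusted p = 0.106 and 0.0675), not from averaging. Among the 16, Fer1l6, entered the test only through its cochlear values, and 15 remain without it.

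The channel modulator gene Cabp2, which encodes a calcium-binding protein that keeps CaV1.3 channels of hair cells from inactivating, differed most. It read 6.5, 6.6 and 6.8 in the cochlea and 10.5, 10.2 and 10.2 in the vestibule, a difference of 3.67 (limma adjusted p = 1.25e-06, standard error 0.14), or 12.7-fold. Kcnma1, a calcium-activated potassium channel gene, was called towards the vestibule at all 3 of its tested probe sets. Its brightest probe set differed by 0.57 (limma adjusted p = 0.0277) and lost its call without cochlea replicate 1 or 3, whereas the mean of the 3 differed by 1.46 (limma adjusted p = 2.31e-05). The channel subunit gene Cacna2d4 stood at 0.37 at its brightest probe set, which did not pass, and at 0.43 over the mean of its tested probe sets, which did (limma adjusted p = 0.0289). The channel subunit genes Cacnb4 (-0.53) and Cacna2d2 (-0.50) were higher in the cochlea but lost their calls under 9 of 17 and 7 of 18 settings, and the mean of probe sets put Cacnb4 at -0.22. The L-type channel gene Cacna1c, a relative of Cacna1d, was higher in the vestibule by 0.53 (limma adjusted p = 0.0148) at its brighter probe set, where the tissues did not overlap, as for 32.3% of all tested genes. The mean of its 2 probe sets differed by 0.25 and did not pass (limma adjusted p = 0.127).

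Genes of the active zone scaffold were divided, with 3 of 10 higher in the vestibule, 3 in the cochlea and 4 not passed. Unc13c, a vesicle priming gene, read 6.4, 6.1 and 6.8 in the cochlea and 7.9, 7.5 and 7.6 in the vestibule, a difference of 1.23 (limma adjusted p = 0.00229) at the 1 tested of its 3 probe sets. Rims1, which encodes a scaffold that tethers vesicles and channels, read 6.0, 6.3 and 6.2 in the cochlea and 4.9, 5.3 and 5.1 in the vestibule. The difference was -1.07 (limma adjusted p = 0.00101) at the 1 tested of its 2 probe sets. The liprin gene Ppfia3 stood at -0.87 and lost its call without vestibule replicate 1 or 3. Rimbp2 and Erc1, both at 0.50, lost theirs without cochlea replicate 1 or any of the vestibular arrays (Erc1 also without cochlea replicate 2). Rims2, at -0.50, lost its call under 10 of 18 settings. Of its 4 tested probe sets 3 were called towards the cochlea, and the mean of the 4 differed by -0.45 (limma adjusted p = 0.0379).

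Among genes of vesicle fusion, 2 of 18 (11.1%) were called towards the vestibule and 6 (33.3%) towards the cochlea, against 15.1% and 7.97% of all tested genes. Cplx1, which encodes a complexin of conventional synapses, read 10.9, 11.1 and 11.1 in the cochlea and 8.0, 7.7 and 8.2 in the vestibule at its brightest probe set. The difference was -3.07 (limma adjusted p = 4.13e-06). Of its 3 tested probe sets 2 were called towards the cochlea, and the mean of the 3 differed by -2.14. Syt1, the calcium sensor of fast release in the brain, stood at -2.33 (limma adjusted p = 1.05e-05) with all 4 probe sets called towards the cochlea, and their mean differed by -1.51. The neuronal fusion genes Snap25 and Stx1a stood at -1.33 and -0.93, while Syt2, a further synaptotagmin gene, was higher in the vestibule by 0.80 (limma adjusted p = 0.00197). Snap25 was tested at 1 of its 2 probe sets and Syt2 at 1 of its 3. The neuronal markers moved in the same direction as Cplx1, Syt1, Snap25 and Stx1a, and their part in these differences was not tested.

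The remaining lists are small, and their counts stand beside 15.1% of all tested genes called towards the vestibule and 7.97% towards the cochlea. The vesicle membrane genes held 1 of 8 higher in the vestibule, Syngr1 at 0.77. Higher in the cochlea were 2, Sv2b at -0.77 and the synapsin gene Syn1 at -0.50, which lost its call without vestibule replicate 1 or 3. Of 12 genes of vesicle recycling 3 were higher in the vestibule, namely Amph at 0.90, Synj1 at 0.53 and Sh3gl2 at 0.50, which act in the retrieval of vesicle membrane by endocytosis, and Dnm3, a dynamin gene, was higher in the cochlea at -1.80 at the 1 tested of its 5 probe sets. None of 3 glutamate transporter genes passed in limma (1 of 3, Slc1a2, at an unadjusted p below 0.05), and Slc17a6 and Slc17a7, the other vesicular transporters of the VGLUT3 family, stood at -0.10 and -0.17. The tail-anchored protein insertion genes Get1 and Get3, whose pathway hair cells need to make otoferlin, did not pass at 0.00 and 0.30. On the afferent side, 1 of 8 genes passed at its brightest probe set. This was the glutamate receptor gene Gria4, higher in the cochlea at -0.60 (limma adjusted p = 0.0118) at the 1 tested of its 3 probe sets. Gria2, another glutamate receptor gene, stood at 0.13 at its brightest probe set, but 1 of its 2 tested probe sets was called towards the vestibule, as was their mean (0.52, limma adjusted p = 0.0074).

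**Figure D4:**
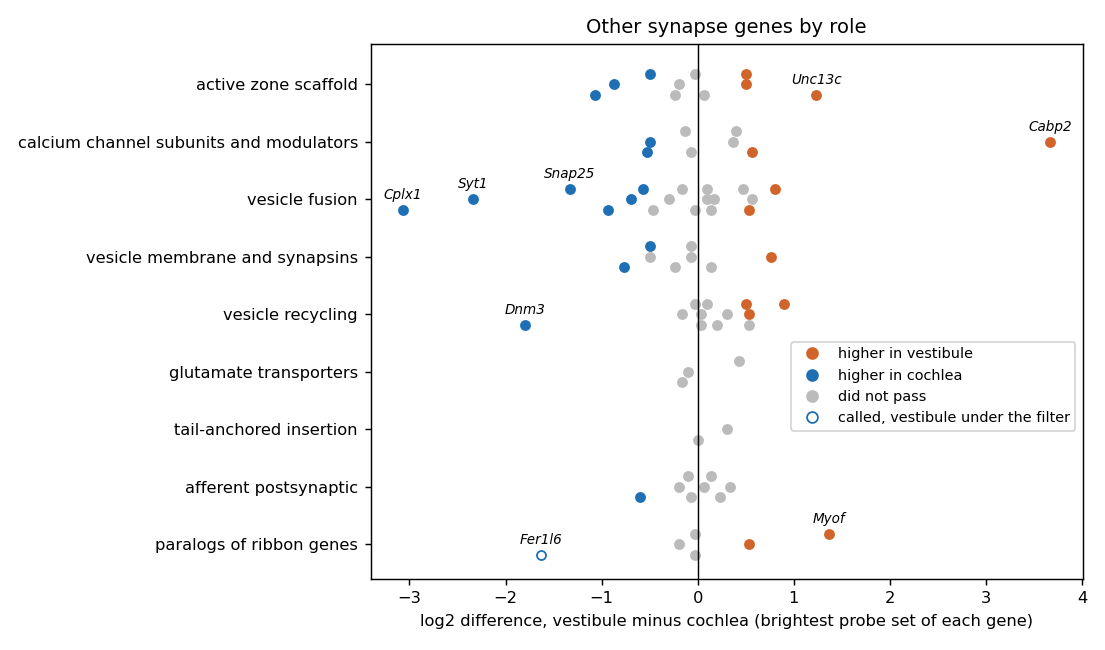
Log2 difference, vestibule minus cochlea, of 75 tested genes of the synapse and relatives of the ribbon genes, at the brightest probe set of each gene and grouped by role, with orange for genes called towards the vestibule, blue for genes called towards the cochlea, grey for genes that did not pass, and an open symbol for Fer1l6, whose vestibular mean lies under the filter. The largest differences are named. Cabp2 stands alone at 3.67 towards the vestibule, and Cplx1, Syt1, Dnm3 and Snap25 lie far towards the cochlea.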

How the data were processed

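The authors amplified total RNA with a 2-cycle kit, hybridised it to Affymetrix mouse expression arrays and deposited log2 expression values computed by RMA with quantile normalization. Their filter used MAS5 Present calls, and the sources used here give no versions. Present calls were not used here; instead the probe sets with the highest mean over all arrays were tested, as many as the authors kept, after 64 control probe sets were left out. Genes were named for the 34945 probe sets annotated to 1 gene, with symbols updated through the Entrez number for 34741. The tissues were compared in R 4.3.3 by limma 3.58.1 (lmFit, eBayes, two-sided) with no block. No 2 arrays were copies, with the same value in 12.0% to 21.4% of probe sets. The number of arrays limits the precision, and confidence intervals are at 95%. The genes, the marker lists and the related lists were chosen with earlier results of these data known. All probe sets of the 7 genes are described, and of each related list up to 4 called genes with the largest differences, with up to 3 for each marker list used as examples. The relatives Ctbp1, Dysf and Myof, and the 3 genes nearest to Otof, were also named. Frem1, Syt2, Rimbp2, Erc1, Rims2, Slc26a5, Cacna2d4, Dnm1, Napb, Nsf, Gria2, Ina and the genes named that did not pass were added after their values were seen. The fit was tested on simulated data. Alternatives covered the filter, scaling, limma options, thresholds, rounding, probe set choice, the replicate number as a block and each array left out. Sequences are from RefSeq. Figures used Python 3.11.15, pandas 2.3.3, numpy 2.4.6 and matplotlib 3.10.9.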

Additional observations from a re-analysis of the deposited data

How the results depend on the processing

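Among the ribbon synapse probe sets, the number higher in the vestibule was 3 to 5 under all alternatives and 3 to 4 when 1 array was left out, and 1 probe set, of Pclo, was higher in the cochlea with no filter. Otof, Cacnb2 1456401_at and Ctbp2 1422887_a_at kept direction and call under all alternatives that tested them. With the replicate number as a block, their limma adjusted p rose to 0.0139, 0.068 and 0.058, nearer to the threshold of 0.1. When 1 array was left out, calls over all probe sets numbered 2359 to 3865 towards the vestibule and 1415 to 2787 towards the cochlea, the lowest without vestibule replicate 1, and 9 to 16 related genes were higher in the cochlea, 9 without vestibule replicate 1 and 10 without vestibule replicate 3. The marker median without Chrna9 and Chrna10 moved the values relative to hair cell markers to 0.13 for Otof, -0.57 for Cacnb2 and -0.60 for Ctbp2. Those of Cacna1d, Bsn and Pclo moved to -1.27, -1.43 and -1.50. This reference has another centre by construction, so a gene equal in both tissues does not stand at -0.98 against it. With the marker mean as reference and 1 array left out, the changes were 0.43 to 0.73 for Otof, -0.25 to 0.06 for Cacnb2 and -0.27 to -0.02 for Ctbp2. Same-numbered arrays of the tissues had residual correlations of 0.217, 0.153 and -0.001. Cochlea replicates 1 and 2 correlated best with their own number, but cochlea replicate 3 with vestibule replicate 2, so the numbers are not known to pair the arrays. With the replicate block, the calls towards vestibule and cochlea numbered 4 and 0 ribbon synapse probe sets, 2886 and 1796 of all probe sets, and 11 and 12 related genes. Log2 values near 4 are close to background, which limits Fer1l6, Nefh, Ina and the dim probe sets of Bsn and Pclo.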
